A study of Mus musculus with 8 samples.

Results

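Microglia, the resident immune cells of the brain, were followed here through 10 of the 15437 genes of the deposited table, each found by its gene symbol. The 10 were chosen as genes that are used to mark these cells. They were the complement genes C1qa, C1qb and C1qc, the surface receptors Csf1r, Cx3cr1, Itgam and Fcrls, the signalling adaptor Tyrobp, the lysosomal protease Ctss and the lysosomal membrane gene Laptm5. RNA was sequenced from 5 pools of Arc-dVenus+ cells and from 3 samples of bulk tissue, all from the temporal association cortex (TeA) of male C57BL/6 mice that carried the reporter as Arc-dVenus +/- and were 60 to 90 days old. The pools FC39, FC40 and FC23 came from fear conditioned mice (FC), which received 7 pairings of a tone with a footshock of 0.5 mA, and the pools Shock30 and Shock33 came from shock-only mice, which received 7 footshocks with no tone. One bulk sample (bulk FC) came from an FC mouse and the other 2 (bulk shock 1 and bulk shock 2) came from shock-only mice, and every mouse was killed 6 h after the behavior. The promoter of Arc, an activity-regulated gene, drives a destabilized Venus fluorophore in these mice, and single fluorescent cells were drawn into a micropipette by hand after protease digestion and trituration. Each library came from a mouse of its own by the treatment protocol, and the sources differ on how many cells a pool held. The bulk tissue was digested in the same way before its RNA was taken.

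Microglia enter the brain early in development and stay there as a self-renewing population. They depend on signalling through Csf1r, survey the tissue with motile processes, and clear debris, dying cells and synapses through complement, Fc-type receptors and a large lysosomal system. C1q, which opens the classical complement cascade, is built from the chains encoded by C1qa, C1qb and C1qc, and in the healthy brain microglia make nearly all of it. In the adult cortex such genes are used to set microglia apart from neurons and from the other glia.

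The label of the pools was checked first against markers of the cell types in the dissection. Excitatory neuron markers stood at 78.1% to 97.5% of the bulk tissue mean in the 5 pools when the CPM (counts scaled to a common library total) of 9 genes were summed. Most of that sum in bulk tissue was Camk2a, a kinase of these neurons, at 3565 CPM on average in the pools and 6385 CPM in bulk tissue, and the other 8 genes, a split made after the values were seen, summed to 160.1% to 194.5% of the bulk mean. Of the 9 genes, 5 to 8 lay above every bulk library in a given pool. Slc17a7, the vesicular glutamate transporter of these neurons, rose 2.09-fold (edgeR's quasi-likelihood test, Benjamini-Hochberg adjusted p = 0.0011), though by less than 2-fold without FC23 or when scaled by library size only (log2 fold changes 1.00 and 0.80). Inhibitory neuron markers stood at 4.49% to 5.71% of the bulk mean and all 10 fell. Most of that sum in the pools was Gad2, at 35.9 CPM on average against 387 CPM in bulk tissue. Sst and Gad1, the next genes of that list by p, were at 0.148 and 0.0967 CPM in the pools, against 81.1 and 94.2 CPM. Total counts were 10223586 to 24151755 in the pools and 7110598 to 9846374 in bulk tissue, and 1500 to 2631 genes of the table had no count in a pool, against 108 to 131 in a bulk library. The pools were thus sequenced more deeply than bulk tissue, so that a single count stands for a lower CPM in them. Their cDNA was amplified from little RNA without molecular identifiers. Depth therefore does not show how few molecules of a gene could be detected in a pool, and more genes were at 0 there. Intervals and floors given below cover counting error only, and not the loss of molecules before sequencing.

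In the tissue, all 10 genes were detected in every bulk library. Set per length, as CPM per 1000 bases of the longest annotated transcript, the order of the bulk levels ran from Ctss at 33.7 ± 7.25 (SD, n = 3), Tyrobp at 26.4 ± 3.18, C1qb at 24.4 ± 5.77 and C1qc at 21.7 ± 3.21 to Csf1r at 14.3 ± 1.83 and Laptm5 at 12.2 ± 1.66. Cx3cr1 followed at 8.98 ± 1.05, Itgam at 7.05 ± 2.69, Fcrls at 6.30 ± 0.74 and C1qa at 5.92 ± 2.09. Neighbours in this order overlapped in their ranges except C1qc over Csf1r and Laptm5 over Cx3cr1. The 10 genes together took 267 to 325 CPM of a bulk library.

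In Arc-dVenus+ cells the same genes were sparse and uneven. Their summed level was 0.294% of the bulk mean in FC39, 3.85% in FC40, 11.8% in FC23, 0.152% in Shock30 and 31.4% in Shock33. Of the 50 values that 10 genes have in 5 pools, 21 were 0 and 15 were 1 to 3 counts, while 8 were over 40 counts. Shock33 and FC23 held 1744 of the 1924 counts, which is 90.6%. FC39 and Shock30 were nearly free of these transcripts, with 15 and 11 counts.

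**Figure D1:**
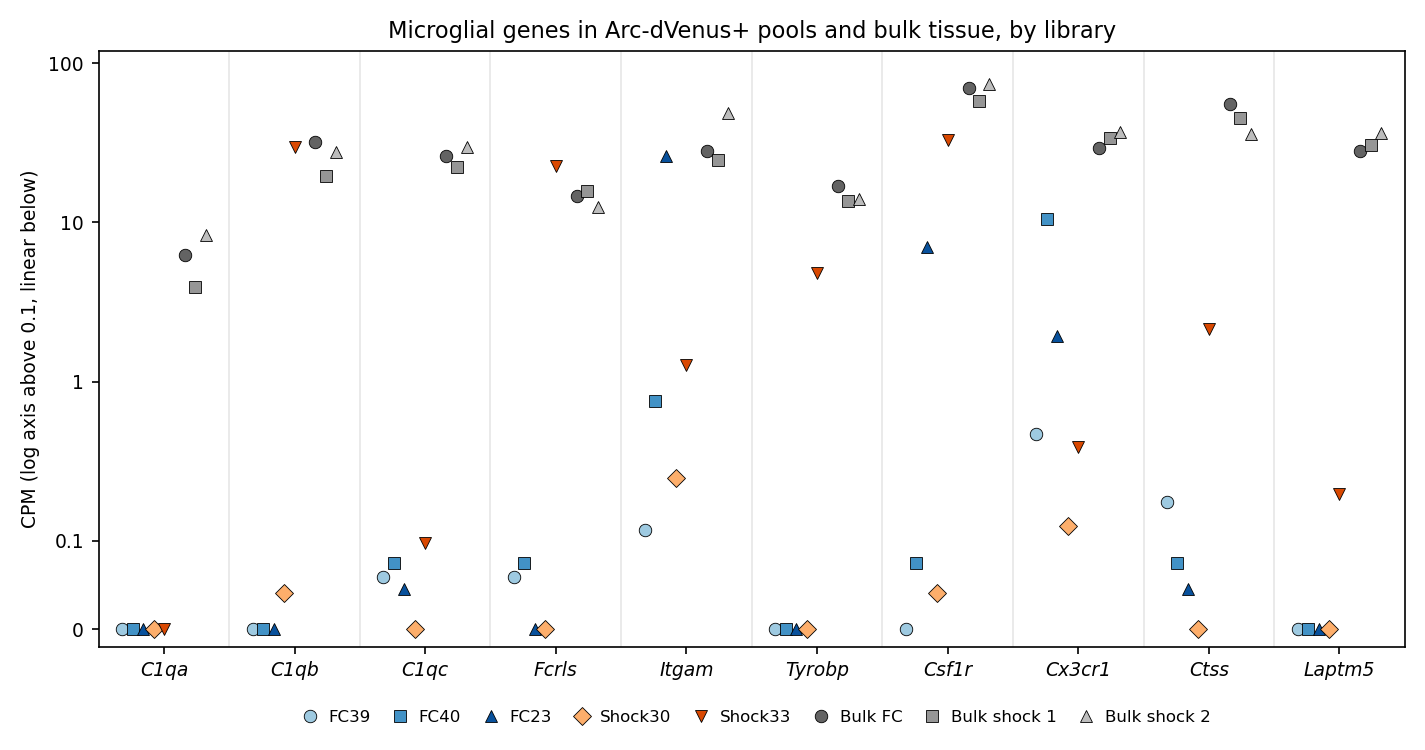
Level of each of the 10 genes in every library, in CPM on an axis that is logarithmic above 0.1 and linear below; each point is 1 library, with the 5 Arc-dVenus+ pools at the left of each gene and the 3 bulk tissue libraries at the right. Most pool values lie at or near 0, and single pools stand far above the rest, such as Shock33 for C1qb at 29.6 CPM and FC23 for Itgam at 26.3 CPM.

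The question put to these genes is how far their RNA is present in the sorted pools, as set against the tissue from which the pools were taken. Which cells that RNA came from was not tested. With edgeR's quasi-likelihood test, 3 of the 9 genes that reached the minimum of 20 CPM summed over the libraries fell in Arc-dVenus+ cells, at an adjusted p under 0.05 and a change of more than 2-fold, and none rose. Over all 12493 genes tested, 6.58% fell and 3.13% rose by the same rule, which is 822 against 391 genes, or 1024 against 145 when libraries were scaled by size only, a setting that moved the median of all genes to -0.16. The median log2 fold change was -3.39 over the 9 genes and 0.10 over all tested genes. All 5 pools lay below all 3 bulk libraries for 6 of the 9 genes, as they did for 21.4% of all tested genes. The 3 calls were lost when the 2 shock-only pools and 2 shock-only bulk libraries were fitted alone, with adjusted p of 0.0869 to 0.259, a fit in which no gene of the table was called. In a comparison of this kind, fewer cells of a type and less RNA per cell cannot be told apart.

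Among the complement genes, C1qc fell, and C1qa was at 0 in every pool. C1qc had 1, 1 and 1 counts in FC39, FC40 and FC23 and 0 and 1 counts in Shock30 and Shock33, against 194, 219 and 213 counts in bulk FC, bulk shock 1 and bulk shock 2. No pool came near a bulk library. The fitted log2 fold change was -8.55 ± 0.87 (SE), with an adjusted p of 0.000182 by edgeR, and by counts over TMM-scaled library totals (edgeR's trimmed mean of M-values) the pools were 464-fold lower, with an exact 95% counting interval of 180 to 1708. C1qa had 0 counts in the pools, against 46, 39 and 59 counts in bulk FC, bulk shock 1 and bulk shock 2. Read against a floor of 3 counts over the 5 pools, C1qa was at least 142-fold lower. At a summed level below 20 CPM it was left out of the main test, and in a fit of all 15437 genes with no minimum its adjusted p was 0.00705.

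C1qb had 0 counts in FC39, FC40 and FC23, 1 count in Shock30 and 303 counts in Shock33, against 237, 194 and 197 counts in bulk FC, bulk shock 1 and bulk shock 2. So 4 pools lay below the tissue, while Shock33 stood at 112% of the bulk mean (exact 95% counting interval of 99.6% to 125%). The fitted log2 fold change of -1.90 ± 2.00 was not past the threshold (adjusted p = 0.643). Without Shock33 it was -10.05 with an adjusted p of 0.000224, with 1 count left in 4 pools, and over all alternatives the adjusted p ran from 0.000224 to 0.953.

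The 3 chains are encoded side by side, all on the minus strand, at chr4:136436044-136442102 for C1qb, chr4:136445719-136448980 for C1qc and chr4:136451832-136454718 for C1qa in mm9, with 3616 and 2851 bases between them. In bulk tissue C1qc ran at 0.997 times and C1qa at 0.229 times the count of C1qb. C1qb was the chain that stood out in Shock33, and was taken as the measure there for that reason. At those ratios the 303 counts of C1qb in Shock33 would have come with 302 counts of C1qc and 69.5 of C1qa, but 1 and 0 were counted.

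Promoters of the members were read because the genes are switched on together in microglia, where the factor PU.1 (Spi1) is known to bind purine-rich GGAA sites. The table of RefSeq promoters (GRCm38.p6) held 7 of the 10 genes, and C1qa, Csf1r and Tyrobp were not matched. The letters AGGAAGT, searched on both strands of the 250 bases before the start site, stood in 3 of the 7, as in 7.69% of all 32851 promoters of that length. The longer GAGGAAGT, which contains it, stood in C1qc alone and in 2.44% of all promoters. The windows are given as the gene is read, with the match in capitals, which lies on the opposite strand each time and so appears as its reverse complement, at chr4:136886221-136886279, chr4:136893077-136893135 and chr3:87263567-87263625, all on the minus strand.
C1qb: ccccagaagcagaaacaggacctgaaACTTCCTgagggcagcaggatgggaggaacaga
C1qc: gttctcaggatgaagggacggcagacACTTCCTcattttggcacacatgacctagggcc
Fcrls: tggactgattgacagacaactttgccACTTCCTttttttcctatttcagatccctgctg
C1qb and Fcrls were high in Shock33, and C1qc had 1 count there. Binding was not measured, and a match is a description of the letters only.

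Fcrls, an Fc receptor-like surface protein that is selective for microglia in mice, followed the pattern of C1qb. It had 1, 1 and 0 counts in FC39, FC40 and FC23, 0 counts in Shock30 and 233 counts in Shock33, against 108, 156 and 89 counts in bulk FC, bulk shock 1 and bulk shock 2. Shock33 reached 159% of the bulk mean (139% to 181%), above every bulk library, and the other 4 pools lay below them. The log2 fold change was -1.38 ± 1.96 (adjusted p = 0.748 by edgeR), and without Shock33 it was -8.35 (adjusted p = 0.00144, range over the alternatives 0.00144 to 0.993). The gene lies at chr3:87054680-87067660 on the minus strand (mm9).

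Tyrobp encodes DAP12, the adaptor that carries signals of Trem2 and other receptors into the cell. No count was found in FC39, FC40, FC23 or Shock30, while Shock33 had 49 counts, against 125, 134 and 100 counts in bulk FC, bulk shock 1 and bulk shock 2. All pools were below the tissue, and Shock33 stood at 32.2% of the bulk mean (23.9% to 42.6%). With 1 pool carrying every count, the log2 fold change was -3.72 ± 1.91 and was not past the threshold (adjusted p = 0.269). It was called at an adjusted p of 0.00206 once Shock33 was left out, where the remaining pools were at least 313-fold lower, and the range over the alternatives was 0.00206 to 0.623.

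Itgam, the alpha chain of complement receptor 3 (CD11b), was carried by a different pool. Its counts were 2, 10 and 582 in FC39, FC40 and FC23 and 6 and 13 in Shock30 and Shock33, against 209, 243 and 346 in bulk FC, bulk shock 1 and bulk shock 2. FC23 held 94.9% of the counts of all pools and stood at 77.8% of the bulk mean (71.6% to 84.4%), within the range of the bulk libraries. The log2 fold change was -2.30 ± 1.40 (adjusted p = 0.367 by edgeR), and -5.60 without FC23 (adjusted p = 0.00352, range over the alternatives 0.00352 to 0.667). Its partner chain Itgb2, without which CD11b does not reach the surface as the receptor, had no count in any pool, FC23 included, and 65, 40 and 28 counts in bulk FC, bulk shock 1 and bulk shock 2, so the pools were at least 131-fold lower.

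Csf1r, the receptor for the growth factors CSF1 and IL-34, was the most counted of the 10 genes in tissue. It had 0, 1 and 154 counts in FC39, FC40 and FC23 and 1 and 336 counts in Shock30 and Shock33, against 515, 569 and 530 counts in bulk FC, bulk shock 1 and bulk shock 2. All pools were below the tissue, with FC23 at 10.4% of the bulk mean (8.78% to 12.1%) and Shock33 at 48.8% (43.7% to 54.3%). The log2 fold change of -2.82 ± 1.60 was not past the threshold (adjusted p = 0.328), nor was that of -4.96 without Shock33 (adjusted p = 0.0659, range over the alternatives 0.0118 to 0.705). The annotation has Hmgxb3 overlapping Csf1r on the opposite strand, and reads of the shared stretch cannot be told apart without strand. Hmgxb3 had 135, 336 and 874 counts in FC39, FC40 and FC23 and 226 and 190 counts in Shock30 and Shock33, against 201, 236 and 165 counts in bulk FC, bulk shock 1 and bulk shock 2. So FC23, with 154 counts of Csf1r, was also the pool with the most Hmgxb3, at 39.6 CPM against 23.2 to 27.2 CPM in bulk tissue, while FC40 had 1 count of Csf1r at 25.2 CPM of Hmgxb3. The part of Hmgxb3 reads in the Csf1r counts was not tested.

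Cx3cr1, the receptor for fractalkine, had a count in every pool, as did Itgam. There were 8, 140 and 43 counts in FC39, FC40 and FC23 and 3 and 4 counts in Shock30 and Shock33, against 217, 334 and 264 counts in bulk FC, bulk shock 1 and bulk shock 2. The pools did not overlap with the tissue, and FC40, the highest, stood at 31.4% of the bulk mean (26.4% to 37.1%). The log2 fold change was -3.39 ± 1.16 and its adjusted p of 0.0879 missed the threshold. It passed without FC40 (log2 fold change -5.23, adjusted p = 0.00627), and also with edgeR's exact test (adjusted p = 0.0240) and with DESeq2 (adjusted p = 0.0147), with a range over the alternatives of 0.00627 to 0.225.

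Ctss, cathepsin S, a lysosomal protease of antigen-presenting cells, fell. It had 3, 1 and 1 counts in FC39, FC40 and FC23 and 0 and 22 counts in Shock30 and Shock33, against 412, 444 and 257 counts in bulk FC, bulk shock 1 and bulk shock 2. Even the highest pool, Shock33, stood at 4.71% of the bulk mean (2.95% to 7.13%). The log2 fold change was -6.40 ± 1.33, which is 84.2-fold lower (adjusted p = 0.00929 by edgeR), and the call was missed without bulk FC (adjusted p = 0.0510, range over the alternatives 1.75e-06 to 0.259). Laptm5, a lysosomal membrane protein of blood-derived and microglial cells, had no count in 4 pools and 2 counts in Shock33, against 207, 301 and 259 counts in bulk FC, bulk shock 1 and bulk shock 2. Its log2 fold change was -9.54 ± 1.18 (adjusted p = 0.000506), and by scaled counts the pools were 1137-fold lower (exact 95% counting interval of 314 to 9405).

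**Figure D2:**
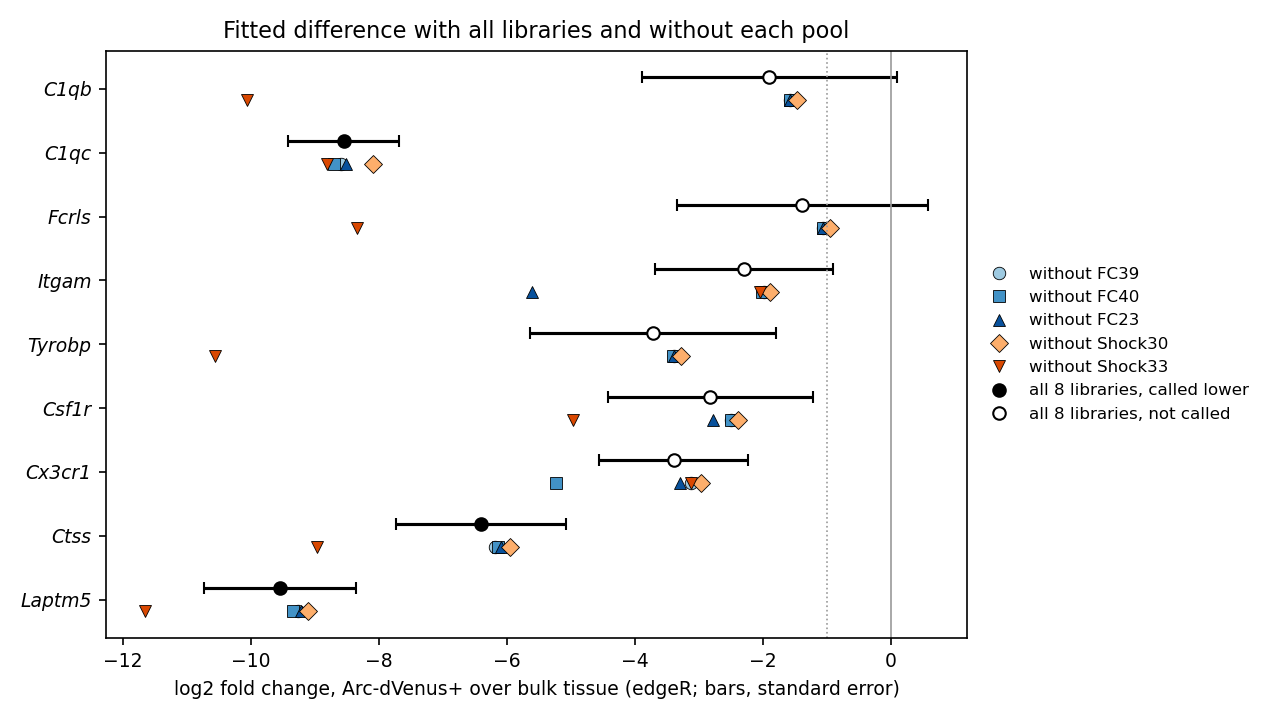
Fitted log2 fold change of Arc-dVenus+ over bulk tissue for the 9 tested genes, with all 8 libraries (circles with standard error, filled where called lower) and without each pool in turn (colored symbols). Leaving out Shock33 moved C1qb, Fcrls and Tyrobp from -1.90, -1.38 and -3.72 to -10.05, -8.35 and -10.55, and leaving out FC23 moved Itgam from -2.30 to -5.60.

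For 5 of these genes the call turned on 1 pool, on Shock33 for C1qb, Fcrls and Tyrobp, on FC23 for Itgam and on FC40 for Cx3cr1. Without Shock33, 6 of 9 genes were called lower, namely the 3 called with all libraries and C1qb, Fcrls and Tyrobp. Of the 9 tested genes, 5 had 90% or more of their summed pool CPM in a single pool, as had 2.19% of all tested genes. Of their 45 pool values 16 were 0, against 3.76% of the pool values of all tested genes. Laptm5, 1 of the 5, had 2 counts over all pools. The tested genes as a whole were not matched to these 9 for level in the pools. A low level there by itself brings zeros and counts in a single pool. These shares therefore do not show that the unevenness is particular to the 9 genes. The lone count of a gene in a pool (of 1 to 3) has a counting interval that spans several fold, so pools with 0 and 1 count were not distinguishable at this depth.

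The make-up of the microglial counts differed more between pools than between bulk libraries. In the 3 bulk libraries the share of a gene in the counts of the 10 differed by 1.06 times for Csf1r, at 21.6% to 22.9%, up to 1.63 times for Ctss, at 11.1% to 18.1%, and 1.72 times for C1qa, at 1.48% to 2.55%. In FC40, 90.9% of the counts were Cx3cr1 (Wilson 95% interval of 85.3% to 94.5%), and in FC23, 74.5% were Itgam (71.3% to 77.5%) and 19.7% Csf1r. In Shock33 the counts were divided among Csf1r with 34.9% (31.9% to 38.0%), C1qb with 31.5% and Fcrls with 24.2%. FC39 and Shock30 had too few counts to compare shares.

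**Figure D3:**
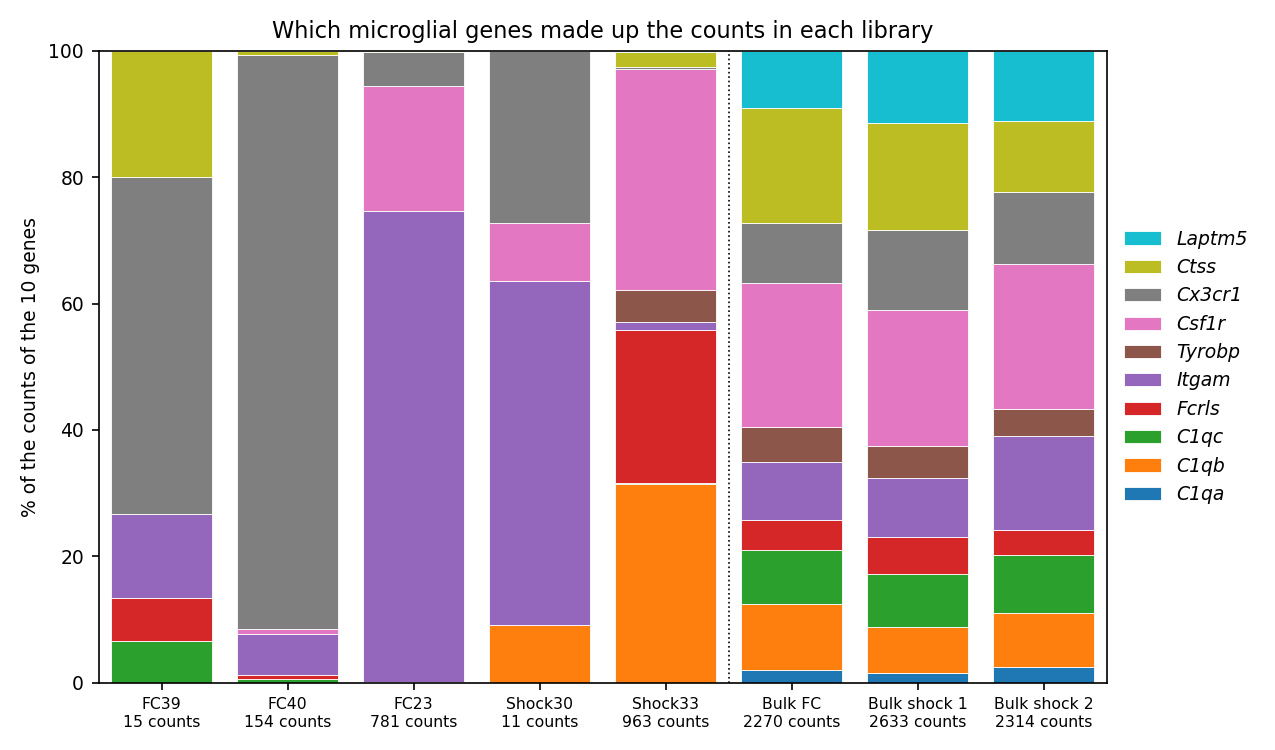
Share of the counts of the 10 genes taken by each gene, as a stacked bar for each library (5 Arc-dVenus+ pools left of the dotted line, 3 bulk tissue libraries right), with the number of counts under each bar. In the bulk bars Csf1r took 21.6% to 22.9%, Ctss 11.1% to 18.1% and Itgam 9.21% to 14.95%, whereas Cx3cr1 took 90.9% in FC40 and Itgam took 74.5% in FC23.

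The counts were then set beside those that each pool would have if its own total over the 10 genes were divided as in bulk tissue, so that genes above and below must balance. In FC40, Cx3cr1 had 140 counts beside 17.4, and the other 9 genes were below, such as Csf1r with 1 beside 34.4. In FC23, Itgam had 582 counts beside 86.4, Csf1r had 154 beside 174.7, and Ctss and Laptm5 had 1 and 0 beside 120.4 and 83.0. In Shock33, C1qb with 303 beside 83.8, Fcrls with 233 beside 47.1 and Csf1r with 336 beside 215 were above, Tyrobp with 49 beside 47.9 was near, and Cx3cr1 with 4 beside 109 was below. The genes above the tissue's division thus differed among the 3 pools.

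**Figure D4:**
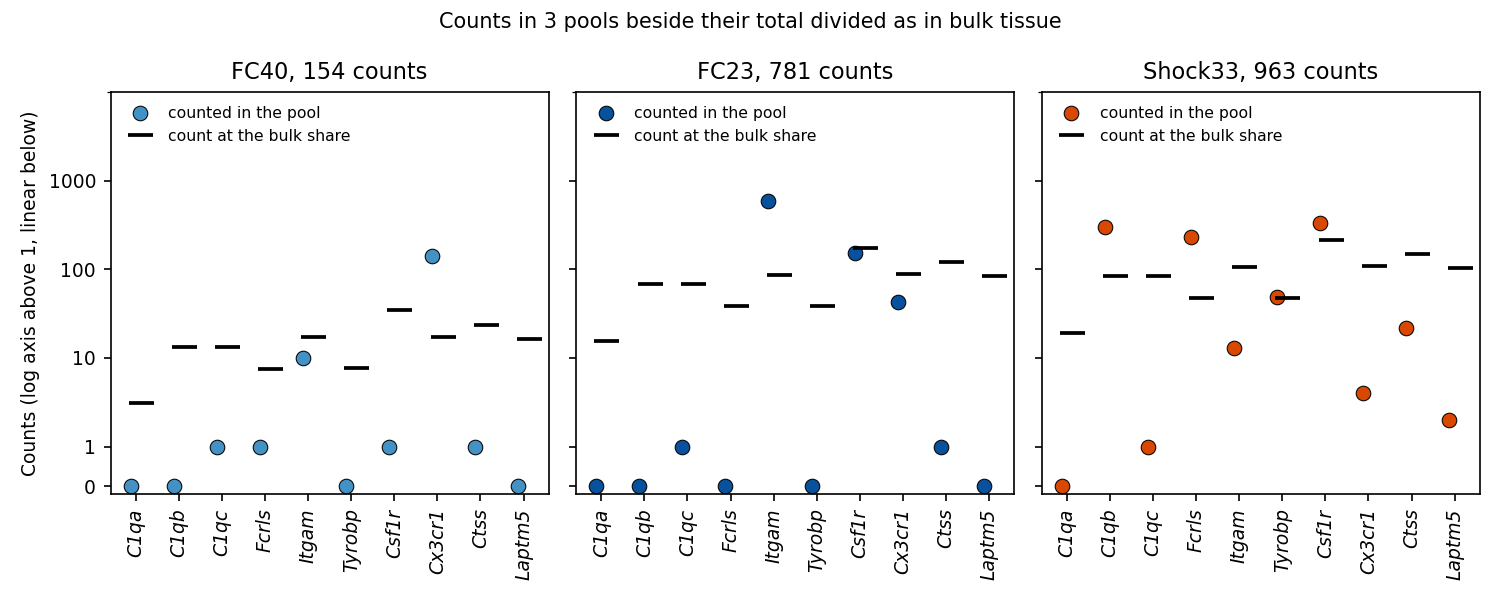
Counts of the 10 genes in FC40, FC23 and Shock33 (points) beside the counts they would have if the pool's total over the 10 genes were divided as in bulk tissue (black dashes), on an axis that is logarithmic above 1 and linear below. Cx3cr1 lies above its dash in FC40 (140 beside 17.4), Itgam in FC23 (582 beside 86.4), and C1qb, Fcrls and Csf1r in Shock33.

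Other genes known to mark microglia fell in most cases that were tested. Of 18 measured, 10 were tested, and 8 of these fell and none rose, with a median log2 fold change of -4.11, and 5 genes of the list were called without bulk shock 1, as were 5 without bulk shock 2. P2ry13 and P2ry12, the purine receptors that steer microglial processes, had log2 fold changes of -7.62 ± 1.27 (adjusted p = 0.00277) and -4.78 ± 0.81 (adjusted p = 0.00313). Tmem119, a membrane protein of resident microglia, had 0, 0 and 0 counts in FC39, FC40 and FC23 and 1 and 1 in Shock30 and Shock33, against 69, 140 and 74 in bulk FC, bulk shock 1 and bulk shock 2 (log2 fold change -8.16 ± 1.22, adjusted p = 0.00154). In Shock33, the pool with the most counts of the 10 genes, 10 of the 18 were at 0, P2ry13 and Gpr34 among them, and none lay above every bulk library. P2ry12 had 12 counts there, Cd53, a tetraspanin of leukocytes, had 4 and was at 0 in the other pools, and Aif1, which encodes the microglial marker Iba1, had 27. For Aif1 this was the highest pool, at 2.64 CPM, against 3.23 to 4.60 CPM in bulk tissue. The summed level of the 18 genes was 8.21% to 12.6% of the bulk mean, with Siglech, a lectin of microglia, at 6.83 to 16.03 CPM in the pools. Of the myeloid transcription factors, Irf8 and Ikzf1 were at 0 in all pools.

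Partners of Tyrobp and of the Fc receptors were represented by 10 measured genes, of which 3 were tested. Fcer1g, the other common ITAM adaptor, and the kinase Lyn fell, at log2 fold changes of -8.12 ± 1.27 (adjusted p = 0.00193) and -6.73 ± 1.33 (adjusted p = 0.00702). Inpp5d, a lipid phosphatase that dampens such signals, did not pass (-2.68 ± 1.33, adjusted p = 0.249). In Shock33, where Tyrobp had 49 counts, Fcer1g had 1, and 5 of the 10 partners were at 0. Of the others, 2 lay above every bulk library there, namely Fcgr1, the high-affinity Fc receptor for IgG, with 44 counts (4.30 CPM, against 1.41 to 2.84 CPM in bulk tissue) and the phosphatase Ptpn6 with 24 counts (2.35 CPM, against 1.22 to 1.97 CPM). Lat2, at 0 in Shock33, had 290 counts in Shock30, against 10 to 20 counts in bulk tissue, and lay above every bulk library in CPM. The summed level of the 10 partners was highest in Shock30, at 27.5% of the bulk mean, against 15.95% in Shock33. Shock30 was the pool with the least of the 10 microglial genes.

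Of the other complement genes, 9 of 13 measured were tested and 1 fell, Serping1, the inhibitor of C1, which had no count in any pool and was at least 241-fold lower (adjusted p = 0.00375 by edgeR). The median log2 fold change of the 9 was -1.21, also with Serping1 at its bound. Cd46, a cofactor that limits complement activation, was at -2.40 ± 1.28 and did not pass (adjusted p = 0.288). Shock33 had 17.9 CPM of C3ar1, the C3a receptor, against 14.3 to 16.5 CPM in bulk tissue. Of the 13 genes, C3ar1 and C4b lay above every bulk library in Shock33. So did Cfb in FC23 (7.11 CPM, against 3.94 to 6.77 CPM) and Cd59a in Shock30 (21.5 CPM, against 4.87 to 10.2 CPM). At 0 were 5, 4, 6, 7 and 6 of the 13 genes in FC39, FC40, FC23, Shock30 and Shock33.

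Lysosomal genes other than Ctss and Laptm5 were measured in 24 cases and tested in 23, of which 4 fell and 19 did not pass, with a median log2 fold change of -0.75. Those that fell were Cst3, a cysteine protease inhibitor of glia (-2.72 ± 0.30, adjusted p = 0.000259), Ctsh, a cathepsin with no count in any pool (adjusted p = 0.00581), Laptm4a (-1.25 ± 0.27, adjusted p = 0.0120) and Cd63 (-5.17 ± 1.22, adjusted p = 0.0183). The call of Laptm4a was lost without bulk FC or bulk shock 1 (adjusted p = 0.0754 and 0.103), and that of Cd63 without any 1 of the bulk libraries (adjusted p = 0.0639 to 0.0704). Ctsb and Ctsd, cathepsins that most cells use, were at 202 to 448 CPM and 81.1 to 203 CPM in the pools, against 290.1 to 351 CPM and 144 to 155 CPM in bulk tissue, and were not called. Summed over the 24 genes, the pools stood at 60.3% to 76.0% of the bulk mean. The largest parts of that sum were Psap and Ctsb, at 649 and 300 CPM on average in the pools. Laptm5 reached at most 0.618% of the bulk mean in a pool and Ctss at most 4.71%. Single genes of the 24 were also this low. Ctsc, like Ctsh, had no count in any pool, and Cd63 was at 0.752 CPM on average against 34.1 CPM. Cd68, a lysosomal membrane protein of macrophages and microglia, had 318 counts in Shock33 (31.1 CPM) and was at no more than 8.20 CPM in the other pools, against 7.41 to 9.99 CPM in bulk tissue, and was not called (log2 fold change 0.50 ± 0.91, adjusted p = 0.808).

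Ligands of the receptors, several of which neurons make, were read as well. Cx3cl1, fractalkine, the neuronal ligand of Cx3cr1, was at 960, 642 and 1015 CPM in FC39, FC40 and FC23 and 760.1 and 757 CPM in Shock30 and Shock33, against 442, 414 and 402 CPM in bulk FC, bulk shock 1 and bulk shock 2. It rose, with all pools above all bulk libraries (log2 fold change 1.23 ± 0.17, adjusted p = 0.00081 by edgeR), and was the 1 gene of 6 tested ligands that was called. Scaled by library size only, it rose by less than 2-fold (0.97). Il34 was at 25.6 to 101.9 CPM in the pools and 24.5 to 30.9 CPM in bulk tissue (1.00 ± 0.51, adjusted p = 0.265), and Csf1 at 0 to 19.4 CPM and 13.5 to 15.1 CPM (-0.85 ± 1.29, adjusted p = 0.766). Cd47, the signal that restrains engulfment, was at 0.17 ± 0.25 (adjusted p = 0.761) and Cd200, which acts on myeloid cells through its receptor, at 0.12 ± 0.56 (adjusted p = 0.935). Tgfb2, with 361 of its 371 pool counts in Shock30, was at -1.77 ± 1.63 (adjusted p = 0.589) and, without Shock30, at -5.76 (adjusted p = 0.00944, range over the alternatives 0.00944 to 0.893). Tgfb1 had no count in any pool and 11 to 36 counts in bulk tissue.

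Markers of other cells were read beside the uneven pools. Genes of border macrophages and leukocytes were measured in 9 cases and tested in 5, and none passed. Their summed level was 189.8% of the bulk mean in Shock33 and 4.81% to 64.8% in the other pools, and 90.5% to 113% in the bulk libraries, and 2 of the 9 genes were at 0 in Shock33 and 3 to 6 in the other pools. In Shock33, Lyz2, a lysozyme of macrophages, had 382 counts, Mrc1 had 134, F13a1 had 142 and Pf4 had 56, where the other pools had 0 or 1 each, against 54 to 85, 58 to 85, 16 to 32 and 3 to 17 counts in bulk tissue. Without Shock33, 3 genes of this list were called lower, among them Lyz2 (log2 fold change -9.87, adjusted p = 0.00369, range over the alternatives 0.00369 to 1.00) and F13a1 (-6.78, adjusted p = 0.00989, range over the alternatives 0.00989 to 1.00). Thus the pool with the most C1qb, Csf1r, Fcrls and Tyrobp was also the pool with the most Lyz2, Mrc1, F13a1 and Pf4, above every bulk library in CPM. Other genes of the list went the other way. Cd163 was at its lowest in Shock33, with 10 counts (0.978 CPM, against 4.03 CPM in FC23 and 5.77 to 7.21 CPM in bulk tissue). Lyve1 and Cbr2 had 0 counts in Shock33, and Ccr2 had 2. In FC23 and FC40, where Itgam and Cx3cr1 stood out, Lyz2 and Pf4 were at 0. Cd74, of antigen presentation, was at 21.9 CPM in Shock30, the pool with the least of the 10 genes. Endothelial markers were at 0.282% to 1.69% of the bulk mean and astrocyte markers at 10.3% to 16.7% in the pools. Most of the astrocyte sum was Slc1a2, at 1205 CPM on average in the pools and 6445.5 CPM in bulk tissue. Gfap was at 0.0885 against 27.1 CPM, Aqp4 at 1.86 against 115.9 CPM and Sox9 at 12.8 against 50.2 CPM. Of the 12 astrocyte genes, 9 were called lower. The part of these genes in the microglial values was not tested.

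**Figure D5:**
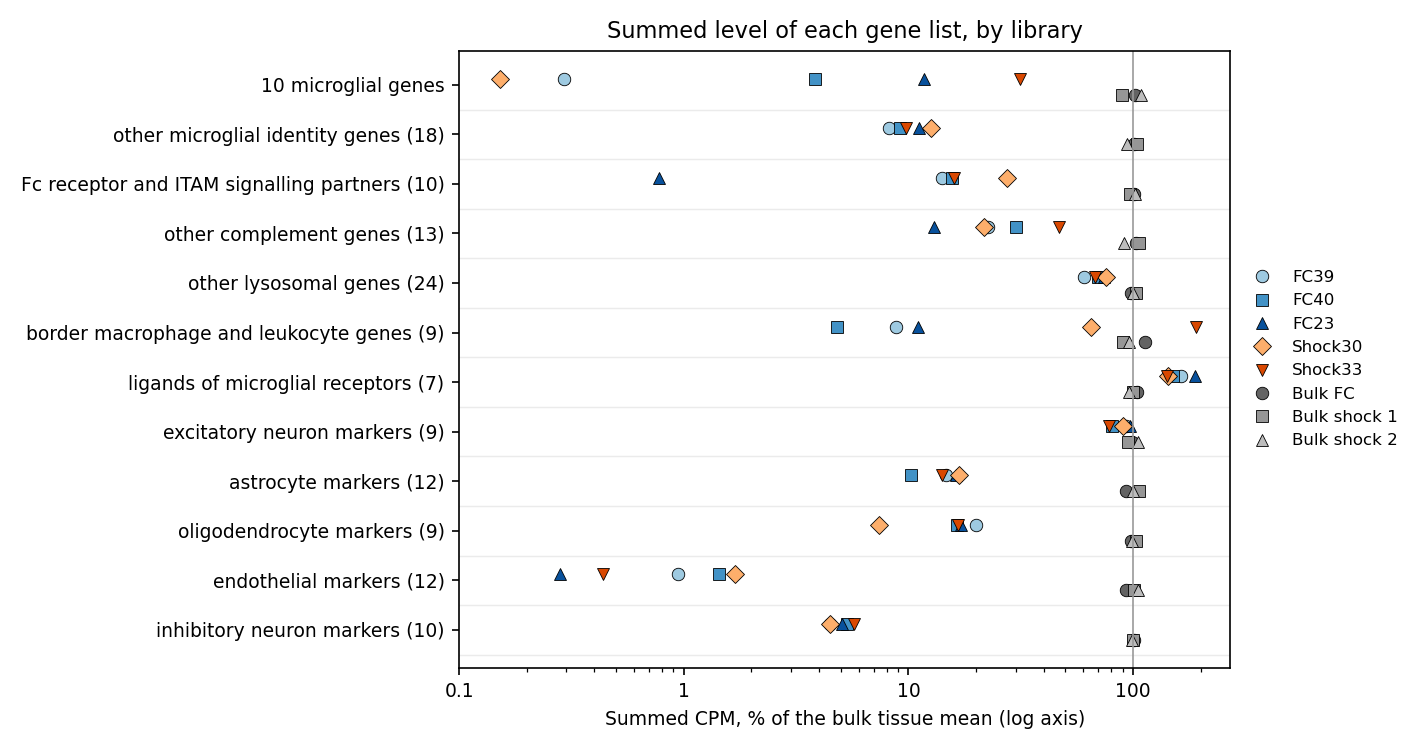
Summed CPM of each gene list in every library, as percent of the bulk tissue mean on a log axis; the number of measured genes is in parentheses, and each point is 1 library (Arc-dVenus+ pools above, bulk tissue below, on each line). The 10 microglial genes spread from 0.152% to 31.4% over the pools and border macrophage and leukocyte genes from 4.81% to 189.8%. Fc receptor and ITAM partners spread from 0.777% to 27.5%, oligodendrocyte markers from 7.42% to 20.1% and inhibitory neuron markers from 4.49% to 5.71%. Oligodendrocyte precursor markers, which are not drawn, spread from 3.18% to 34.2%.

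Conditioning was examined next, within Arc-dVenus+ cells. With edgeR, none of the 9 tested genes passed the test between 3 FC and 2 shock-only pools (lowest adjusted p = 0.770), nor did any other of the 12453 genes tested, 0% of all. By unadjusted p under 0.05, 3 of the 9 were found, C1qb, Fcrls and Tyrobp, the genes carried by Shock33. Their log2 fold changes of FC over shock-only were -11.04 ± 3.08, -7.92 ± 2.67 and -8.41 ± 3.17. DESeq2 called 1, C1qb, at an adjusted p of 0.00567, from 0, 0 and 0 counts in FC pools against 1 and 303 counts in shock-only pools. Itgam and Cx3cr1, which were led by FC pools, had 3.55 ± 2.31 (adjusted p = 0.838 by edgeR) and 4.02 ± 2.01 (adjusted p = 0.770). The difference of the Arc-dVenus+ effect between FC and shock-only mice, which rests on 1 bulk FC library, was likewise called by edgeR for 0 of 9 genes and 0% of all 12493, with 3 of the 9 at an unadjusted p under 0.05, and DESeq2 called 0, with 4 at an unadjusted p under 0.05. The shares of all genes that DESeq2 called, or that had an unadjusted p under 0.05, are not given here. Counts of the 9 genes by these measures thus cannot be set against the whole table.

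Likeness to the mean profile of the 10 genes was described by Pearson's r of log2(CPM + 0.5) over the 8 libraries, which differ in type and depth. The most alike of the tested genes that were no members were Gna12 (r = 0.993), Slc15a1 (0.991), Pwwp2a (0.991), Dcn (0.991), Dpysl5 (0.991), Kif11 (0.991), Slc40a1 (0.990), 4930519G04Rik (0.990), Fbxo43 (0.990) and Nol10 (0.990), none of which stood in a list of microglial genes. Most alike to Itgam alone were Cplx3 (0.989), Pla2g16 (0.982), Zfp870 (0.982), F730043M19Rik (0.980) and Adamts1 (0.979). They were chosen for their likeness to a gene that peaks in FC23, so a peak there follows from the choice, as for Adamts1 with 106 of its 107 pool counts and Pla2g16 with 269 of 271.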

How the data were processed

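Gene values were taken from 1 table of all genes. The authors used RUM for alignment to mm9, retained reads with a single alignment and the transcript variant with most reads, and deposited read counts per gene. The authors also deposited CPM values, which matched CPM computed here from the counts within 0.0005 for every gene and library. A fold change and a p-value column of the authors, and the smaller sheets, hold their own comparisons and were not used. The cDNA was amplified from little RNA without molecular identifiers.

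A sum of at least 20 CPM over the 8 libraries was required, which 12493 genes met, and these were fitted with edgeR 4.0.16 (quasi-likelihood test, TMM scaling, Benjamini-Hochberg adjustment over all of them) in R 4.3.3. Called genes had an adjusted p under 0.05 and, against bulk tissue, more than a 2-fold change. The minimum, the thresholds and the pooling of FC with shock-only libraries follow the methods of the study, which used edgeR. DESeq2 1.42.0, limma 3.58.1 (voom), other scalings and minima, each library left out and condition as a covariate were the alternatives. Floors are 3 counts. The edgeR step was tested on simulated data. FC was compared with shock-only within the pools over 12453 genes, and the interaction in a fit of 4 groups. Positions are from GENCODE M1 (mm9) by symbol, with 10 of 10 matched, and figures were drawn with matplotlib 3.10.9 in Python 3.11.15.

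The members, the lists and the tests were chosen with earlier results of these data known. All members are named, with up to 3 genes of lowest p of each other list and every ligand, and the 10 and 5 genes most alike to the members' mean and to Itgam. Border macrophage genes, Itgb2, Irf8, Ikzf1, Siglech, Tmem119, Gpr34, C3ar1, Ctsb, Ctsd, Cd68, Aif1, Cd53, Fcgr1, Ptpn6, Lat2, Camk2a, Gfap, Aqp4, Sox9, Hmgxb3, Cd74 and the fourth lysosomal gene that fell were named after their values were seen. Some genes that this rule names are not reported here.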

Additional observations from a re-analysis of the deposited data

Results flagged for a closer look

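In 8 of the 10 genes, 1 of the 5 Arc-dVenus+ pools lay far from the others, by a gap of more than 0.71 of the range of the pools. Chance flags about 1 in 20 groups by this measure where values are normally spread, and 14.7% of all tested genes were past it. The tested genes as a whole were not matched to the 10 for level in the pools. Shock33 was the pool apart for C1qb (29.6 CPM), Ctss (2.15 CPM), Csf1r (32.9 CPM), Laptm5 (0.196 CPM, which is 2 counts), Fcrls (22.8 CPM) and Tyrobp (4.79 CPM). FC40 was apart for Cx3cr1 (10.5 CPM) and FC23 for Itgam (26.3 CPM). C1qa, at 0 in every pool, and C1qc, at 0 or 1 count, were not past it.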

How the results depend on the processing

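The number of the 9 tested genes called lower in Arc-dVenus+ cells was 3, and was 3 or 4 under other tests, scalings and minima, except 9 with limma voom and 0 with the shock-only libraries alone. It ran from 2 to 6 when each library was left out, with 2 without bulk FC and 6 without Shock33. C1qc, Laptm5 and Ctss were called lower in each of these fits but the shock-only one and, for Ctss, the one without bulk FC. Fcrls alone turned in sign, to 0.06 in the shock-only fit (adjusted p = 0.993). Over all genes, 822 fell and 391 rose. With no minimum 1577 fell, with DESeq2 649 rose, with limma voom 248, by library size only 145 and with no minimum on the fold 771, and with the shock-only libraries alone 0 fell and 0 rose. With each library left out, 465 to 960 genes fell and 199 to 608 rose. DESeq2 called 1 of the 9 genes between FC and shock-only pools and edgeR 0, and the interaction gave 0 in every fit. The share of all genes that DESeq2 called between these pools is not given.

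F13a1, not called in the fit of all libraries (log2 fold change 0.15), was called lower without Shock33 (-6.78), and ran to 0.59 over the other left-out pools. Scaling residual levels by TMM gave 135% of the bulk mean for C1qb, 193% for Fcrls and 59.0% for Csf1r in Shock33, 93.0% for Itgam and 12.4% for Csf1r in FC23 and 37.5% for Cx3cr1 in FC40. The cause of these changes was not tested, apart from the library left out. No paired analysis was possible because the labels number no pool and bulk library as a pair. A gene at 0 may be present below 3 counts in a pool, and 5 pools of single mice cannot give the spread of such sparse counts.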
